A study of Homo sapiens with 24 samples.

Results

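Transcript levels of 10 enzymes of purine synthesis and the folate cycle, PPAT, GART, PAICS, ADSL, ATIC, IMPDH2, GMPS, SHMT2, MTHFD1 and MTHFD2, were followed through a time series of synchronised human cells. The members were set by a list of names and not by a rule on their values. The list was made with earlier results of these data known. All 10 members were found among the 12285 genes of the deposited expression table. The cells were K562, an established line from a chronic myeloid leukaemia that grows in suspension and keeps erythroid features. They were sorted by size with centrifugal elutriation, which yields cells of similar cell-cycle position, and then cultured in RPMI with 10% BCS (bovine calf serum) and P/S. RNA was sequenced at 24 time points, every 2 h from 0 h to 46 h, with 1 library at each. All libraries share the same line, medium and synchronisation, and time is the only variable that the labels give. There were no replicates: 1 library stands behind each value, and differences were set against the same measure elsewhere in the course. The labels do not say whether the time points came from a single elutriated culture. Fewer cells in a phase and less RNA per cell cannot be told apart in such bulk samples.

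Purine nucleotides are built either from small molecules, by the de novo route, or from free bases, by salvage. The de novo route assembles the ring on ribose phosphate up to inosine monophosphate (IMP), from which the adenine and guanine nucleotides branch off. Formyl groups carried by folate enter the ring in the steps of GART and ATIC. These groups come mainly from serine. In mitochondria SHMT2 cleaves serine, and MTHFD2 oxidises the folate-bound carbon that this yields. In the cytosol MTHFD1 turns the exported formate into formyl-folate. Dividing leukaemic cells draw heavily on this route, and antifolates and purine analogues are long-standing drugs against leukaemia.

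The label of the cells was checked first. All 12 erythroid markers of the list used were in the table, with summed levels from 4329 to 8132 FPKM (fragments per kilobase of transcript of the library's mapped fragments, a level scaled for length and depth) over 22 time points, those of 16 h and 18 h left out. Only 1 of 6 fibroblast markers was in the table, COL1A2, with at most 3.94 FPKM, and 3 of 7 lymphoid markers were, with summed levels from 20.2 to 56.0 FPKM. The libraries of 16 h and 18 h stood apart from the rest. Their FPKM summed to 566247 and 591309, against 456791 to 520382 elsewhere, and 102 and 115 genes were listed at 0, against 4 to 58. The 4 nuclear-retained long RNAs in the table summed to 11298 and 12536 FPKM, against 864 to 1926. Most of this was MALAT1, at 11073 and 12319 FPKM, against 1100 FPKM at 14 h and 851 FPKM at 20 h. TUG1 was also higher, at 91.3 and 106 FPKM, against 40.1 and 45.5 FPKM. NEAT1 was lower, at 133 and 110 FPKM, against 186 and 233 FPKM, and MEG3 stayed below 1.3 FPKM. The study itself names 16 h and 18 h as irregular time points, and 32 h to a lesser degree. For such time points it proposes a technical rather than biological origin, which it did not identify. Tests of time were therefore run without the libraries of 16 h and 18 h, and values at these hours were described on their own.

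Several of the genes lie head to head with a neighbour and share its start region. PPAT and PAICS are transcribed away from each other, as are GART and SON, a splicing cofactor gene that is not an enzyme of the pathway. Their shared stretches are shown because the levels within each pair can be compared directly in these libraries, and the stretch before MTHFD2 is shown because that gene had the largest step at the end of the course. The sequences are from RefSeq (GRCh38.p14), whose table held start windows for 7 of the 10 genes, and are given on the forward strand. The processing notes of the submitters name GRCh37, and the table of levels holds no coordinates, so these positions are not those of the quantification. The PPAT–PAICS stretch, chr4:56435616-56435751, spans the 136 bases between the starts and has a GC content of 75%. The GART–SON stretch, chr21:33542893-33543037, spans 145 bases between the SON start and the nearest of the listed GART starts. For MTHFD2 the 250 bases before the start are given, chr2:74198365-74198614. Capitals mark the letters CCAAT on either strand.
PPAT–PAICS: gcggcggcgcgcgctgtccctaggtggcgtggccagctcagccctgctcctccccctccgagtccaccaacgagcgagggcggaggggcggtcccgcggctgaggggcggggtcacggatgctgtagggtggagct
GART–SON: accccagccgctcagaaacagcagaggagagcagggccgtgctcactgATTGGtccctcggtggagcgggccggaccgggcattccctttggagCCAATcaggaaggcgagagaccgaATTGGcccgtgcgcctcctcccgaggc
MTHFD2: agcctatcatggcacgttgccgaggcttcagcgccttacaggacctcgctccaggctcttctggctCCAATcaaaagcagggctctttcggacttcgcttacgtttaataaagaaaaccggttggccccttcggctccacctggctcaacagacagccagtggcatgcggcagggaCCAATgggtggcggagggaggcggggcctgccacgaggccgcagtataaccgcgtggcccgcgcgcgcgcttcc

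Searched on both strands, CCAAT occurred 3 times between GART and SON, 2 times before MTHFD2 and not between PPAT and PAICS. Of 35116 RefSeq windows of 250 bases before to 50 after a start, 34.6% hold it. The E-box letters CACGTG, found in 7.26% of windows, were in the windows of ATIC, MTHFD1, PPAT and PAICS, with PPAT and PAICS sharing 1 element that lies just inside PAICS. The letters TGATGNAA, a core of many ATF4 sites, were in 3.62% of all windows and in none of the 7 genes. TTTNGCGC, which resembles E2F sites, was in 1.79% of windows and, among these genes, only in the window of a further start of GART. CATGCGC, part of the NRF1 motif, was in 4.43% and among these genes only in that of MTHFD1. Matches of some motifs can overlap those of others, and a match of letters is a description and not a site.

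On the FPKM scale, which allows for transcript length, the genes spanned a wide range of levels. The medians over the 22 time points ran from PAICS (237 FPKM) through GART (226 FPKM), IMPDH2 (170 FPKM), ATIC (148 FPKM), MTHFD2 (143 FPKM), GMPS (119 FPKM), SHMT2 (108 FPKM), ADSL (89.5 FPKM) and MTHFD1 (80.4 FPKM) to PPAT (36.7 FPKM). PPAT, the amidophosphoribosyltransferase of the first committed step, was thus the lowest, and its median was 2.19-fold below that of MTHFD1. Only this last pair of neighbours in the order did not overlap in range. PAICS exceeded GART at 19 of 22 time points, and ATIC exceeded MTHFD2 at 14 of 22, the least separated pair. PPAT and PAICS, despite their common start region, differed throughout: PPAT lay between 28.7 and 48.5 FPKM and PAICS between 219 and 291 FPKM.

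**Figure D1:**
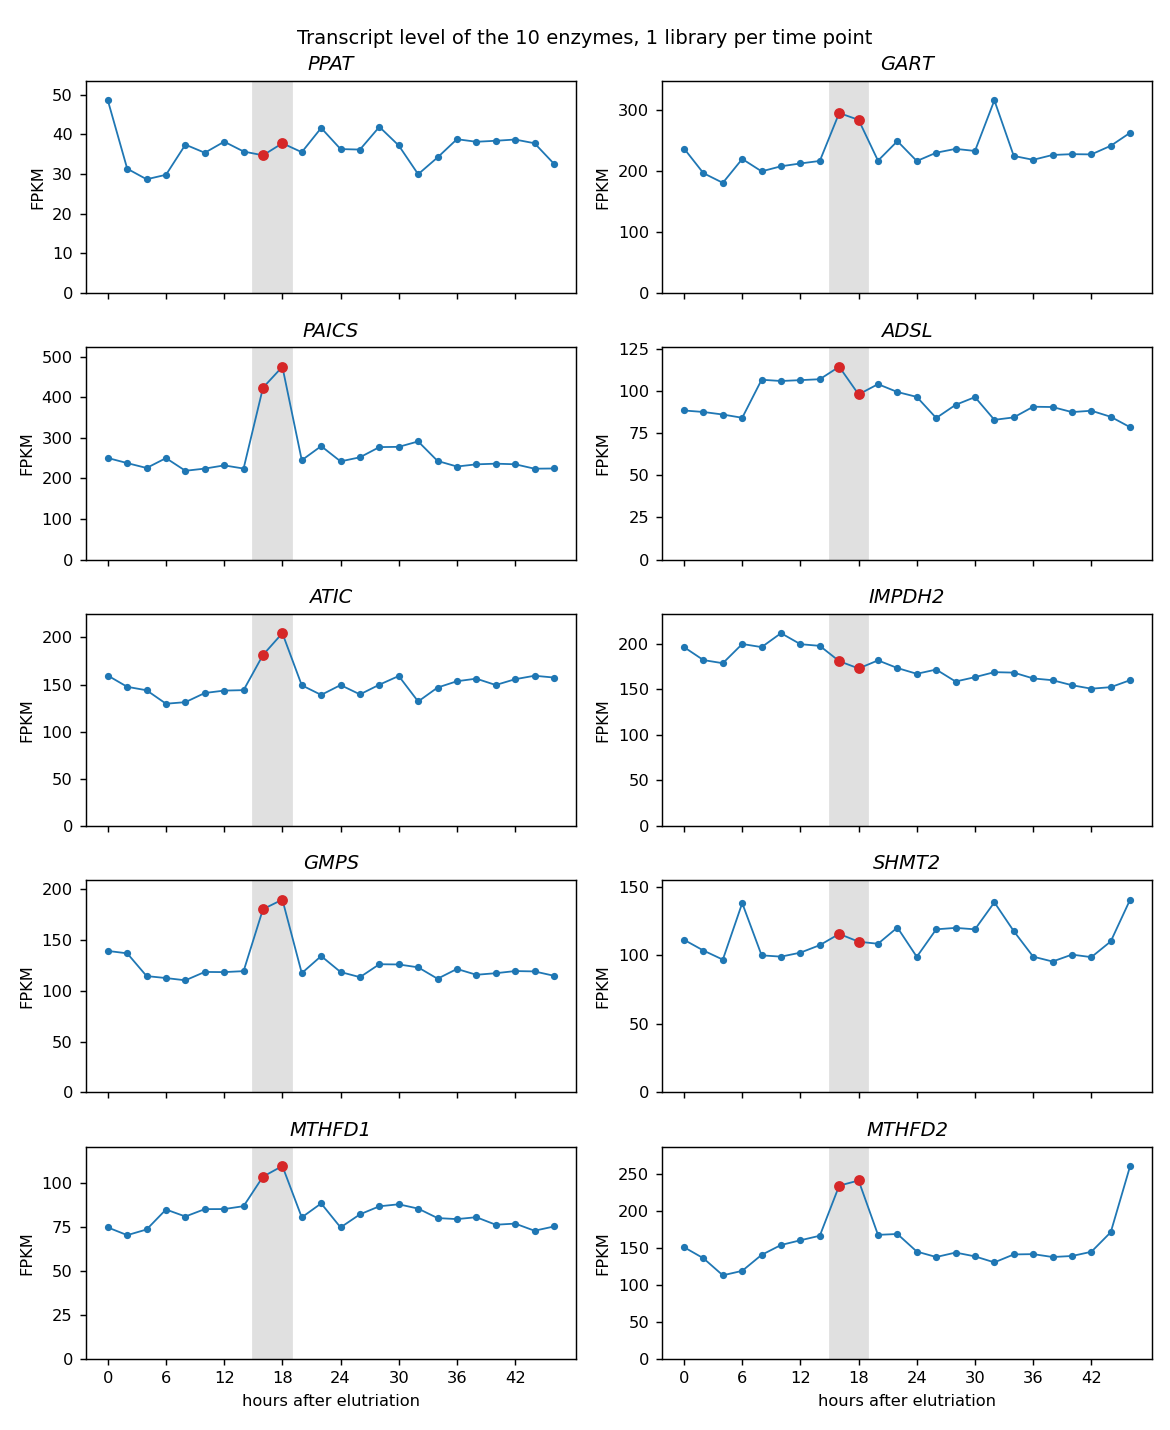
Transcript level in FPKM (vertical axes, each from 0) of the 10 enzymes against hours after elutriation (horizontal axes), 1 library per point, with 16 h and 18 h shaded and in red. PAICS, GMPS, ATIC and MTHFD1 have their highest values in the shaded hours, IMPDH2 declines over the course, and MTHFD2 is highest at 46 h.

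In the irregular libraries of 16 h and 18 h the measured values of the enzymes split. PAICS, a carboxylase and SAICAR synthetase in the middle of the route, was measured at 424 and 476 FPKM, against 225 FPKM at 14 h and 245 FPKM at 20 h. GMPS, which aminates xanthosine monophosphate to GMP, was at 180 and 190 FPKM, against 119 and 117 FPKM at those flanks. Both hours were above every other time point for PAICS and GMPS, as they were for ATIC and MTHFD1. PPAT, in contrast, was at 34.7 and 37.7 FPKM, near its median. As a measure, the mean of log2(FPKM + 1) at 16 h and 18 h was taken relative to the straight line between 14 h and 20 h. This departure was 0.93 for PAICS and 0.64 for GMPS, whereas at 16 other consecutive pairs of time points it ran from −0.17 to 0.13 for both.

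The remaining enzymes of the route had smaller departures. GART, which carries several early steps including a formyl transfer, was at 295 and 284 FPKM, against 217 FPKM at both flanks, with a departure of 0.42. ATIC, which performs the other formyl transfer and closes the ring, was at 181 and 205 FPKM, with a departure of 0.39. ADSL, which releases fumarate in both the IMP and the AMP branch, was at 114 and 98.0 FPKM, with a departure of 0.00. IMPDH2, the rate-limiting enzyme of guanine nucleotide synthesis, was at 181 and 173 FPKM, with a departure of −0.10 that lay inside its own range of −0.13 to 0.06 at other pairs. Of the successive steps of the guanine branch, IMPDH2 thus stayed within its range and GMPS left it.

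Among the folate enzymes, MTHFD2 was at 235 and 242 FPKM in these hours, against 167 and 168 FPKM at the flanks, with a departure of 0.51. MTHFD1 was at 104 and 110 FPKM, against 86.8 and 80.4 FPKM, with a departure of 0.35. SHMT2 was at 116 and 110 FPKM, with a departure of 0.06. In all, 6 of the 10 genes lay above the range of their own 16 other pairs (GART, PAICS, ATIC, GMPS, MTHFD1 and MTHFD2) and 0 lay below it. Over the 12253 genes that averaged 1 FPKM or more, 43.6% lay above and 28.0% below, so most genes left their range at these hours. At 2-fold, 0 of the 10 genes passed in either direction, where 8.95% of all genes lay above and 7.11% below. At 1.5-fold, PAICS and GMPS passed above and 0 below, where 23.9% of all genes lay above and 16.8% below. The median departure of the 10 was 0.37 and that of all genes 0.14.

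The direction of the small departures depended on scaling. With each library scaled to its median, 6 of the 10 genes stayed positive and the median was 0.25, beside 0.03 for all genes. With upper-quartile scaling the same count was 6 and the median 0.14, beside −0.06 for all genes. The 6 were again GART, PAICS, ATIC, GMPS, MTHFD1 and MTHFD2. PPAT, ADSL and SHMT2 were at or below −0.17 with upper-quartile scaling, and PAICS stayed at 0.70 and GMPS at 0.41. After the trend of log2 levels with transcript GC content was removed from each library, PAICS was at 0.66 and GMPS at 0.27, while SHMT2, which has the highest GC content of the 10 (58.8%), was at 0.53 and PPAT (42.6%) at −0.31. IMPDH2, below 0 under the scalings, was at 0.03 after that removal. Cytosolic ribosomal protein transcripts summed to 8214 and 7799 FPKM in these hours, against 9173 to 12670 elsewhere, and erythroid markers to 3283 and 2964 FPKM. The part of GC content and of these RNA classes in the departures was not tested.

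Paralogs and partners that are not members gave other values. IMPDH1, the minor isoform of IMPDH2, was at 26.8 and 24.2 FPKM, against 47.0 and 45.2 FPKM at the flanks, a departure of −0.83. SHMT1, the cytosolic counterpart of SHMT2, had −0.53, and PFAS, the step between those of GART, −0.47. MTHFD1L and MTHFD2L had 0.25 and 0.21. SON, opposite GART, had 0.52, close to the 0.42 of GART, whereas PPAT and PAICS across their stretch had 0.02 and 0.93. The likeness of GART and SON is that of these hours, and over the course they changed in opposite directions (below). Whether reads were assigned by strand is not given in the sources used here, so reads where such neighbours overlap could be counted to either. In the table that the authors deposited as cleaned, whose values are scores of another scale, PAICS still departed by 1.71 and GMPS by 1.64 score units, and ATIC (1.05), GART (0.96) and MTHFD1 (0.53) were also above 0. The other 5 genes were below 0, with IMPDH2 at −1.43, ADSL at −1.46, PPAT at −0.14, MTHFD2 at −0.07 and SHMT2 at −0.01 score units.

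**Figure D2:**
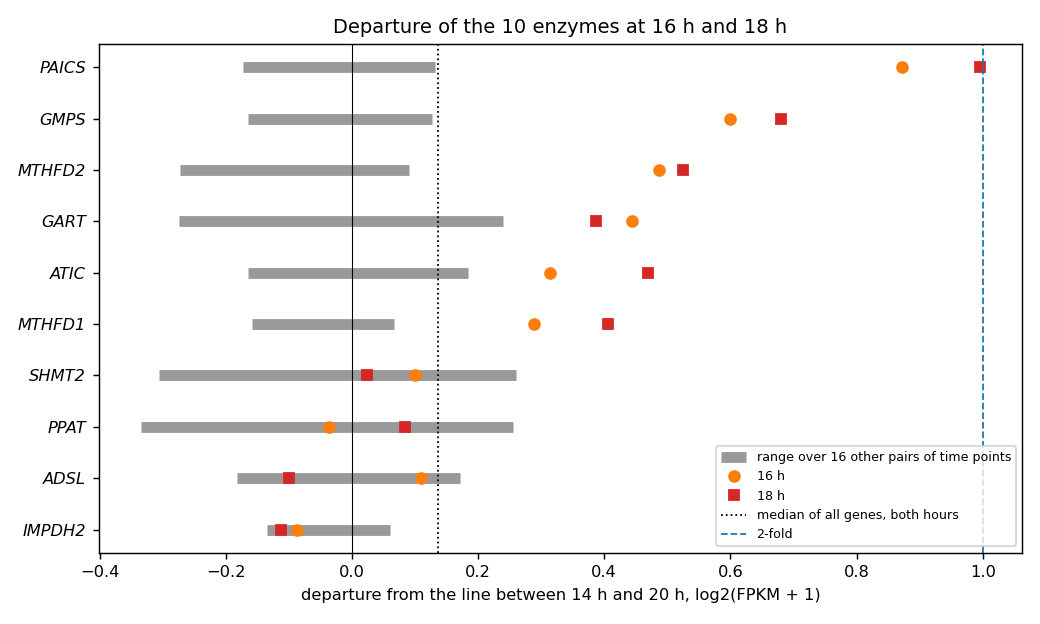
Departure of each enzyme from the line between 14 h and 20 h in log2(FPKM + 1) (horizontal axis), at 16 h (circles) and 18 h (squares), with grey bars for the range over 16 other pairs of time points. PAICS and GMPS lie farthest to the right, IMPDH2, ADSL, PPAT and SHMT2 lie at or inside their grey bars, and the dotted line marks the median of all genes (0.14).

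Over the 2 days of the course, 3 of the 10 genes changed by the linear term of a limma fit that also held a 24 h cosine and sine, with Benjamini–Hochberg adjustment over 12253 genes. IMPDH2 fell most. Its level at the 10 time points of the first day ran from 173 FPKM through a median of 196 to 211 FPKM, and at the 12 time points of the second from 150 through 161 to 171 FPKM. The days did not overlap. This held for 1 of the 10 genes, and over all genes the second day lay wholly below the first in 0.0816% and wholly above it in 0.53%. The mean fell from 191 ± 12.0 FPKM (SD, n = 10) to 161 ± 6.74 FPKM (SD, n = 12), and the linear change was −0.23 ± 0.03 log2 units per 24 h (SE, limma adjusted p = 1.07e-05). It passed under every alternative tried, each single library left out included, with changes from −0.26 to −0.21 and an adjusted p of at most 0.0020.

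ADSL also fell, by 0.14 ± 0.05 log2 units per 24 h (SE, limma adjusted p = 0.021). Its levels ran from 84.1 through 102 to 107 FPKM on the first day and from 78.5 through 87.9 to 96.5 FPKM on the second, so the days overlapped. ADSL stood at 84.1 to 88.5 FPKM up to 6 h, then at 99.4 to 107 FPKM from 8 h to 22 h with 16 h and 18 h left out, and lower again afterwards. Without the library of 46 h its adjusted p was 0.051. GART was the only gene of the 10 that rose, by 0.17 ± 0.06 log2 units per 24 h (SE, limma adjusted p = 0.021). Its levels ran from 181 through 215 to 249 FPKM on the first day and from 217 through 229 to 316 FPKM on the second. With 16 h and 18 h included, both high for GART, its change was 0.09 with an adjusted p of 0.33. The other 7 genes did not pass, with changes from −0.04 for GMPS to 0.12 for SHMT2. SON, opposite GART and not one of the 10, fell by 0.10 ± 0.04 log2 units per 24 h (SE, limma adjusted p = 0.029). Of all genes, 19.5% rose and 12.5% fell, beside 1 and 2 of the 10. The median change was 0.03 for the 10 and 0.02 for all genes. Other RNA classes differed between the same days. Of 12 ribosomal protein genes 10 fell and 0 rose, with a median change of −0.15, and their sum ran from 11004 to 12670 FPKM on the first day and from 9173 to 12221 FPKM on the second. The 12 erythroid markers (2 rose, 4 fell) summed to 5268 to 8132 FPKM and to 4329 to 6795 FPKM, and the 3 lymphoid markers in the table, of 7 listed, to 20.2 to 33.8 FPKM and to 34.1 to 56.0 FPKM. The part of these classes in the changes of the enzymes was not tested.

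**Figure D3:**
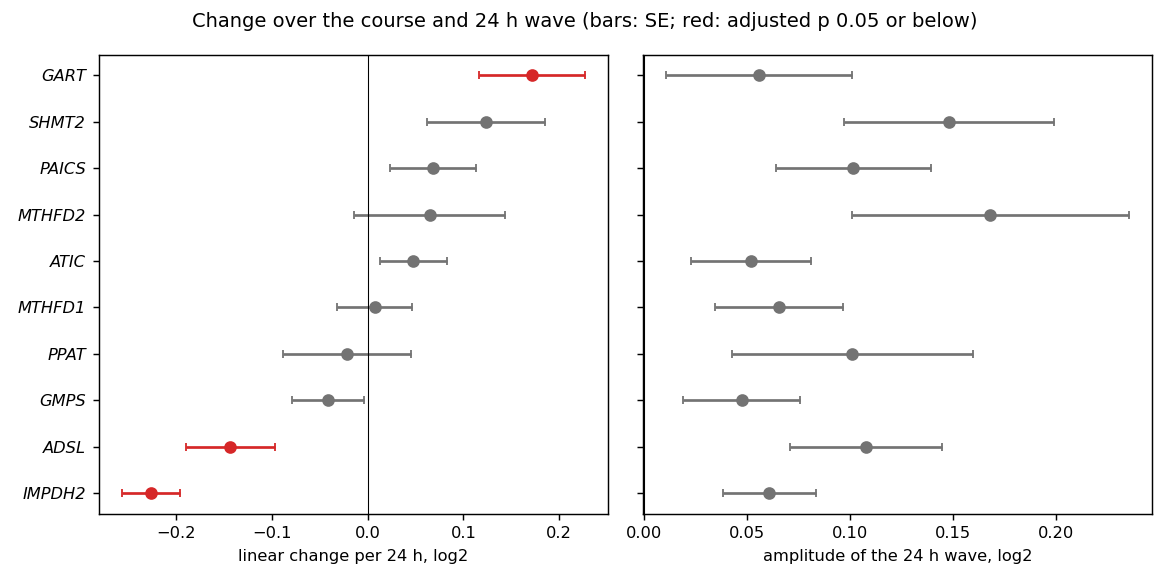
Linear change per 24 h (left) and amplitude of the 24 h wave (right), both in log2 units, for the 10 enzymes over 22 time points, with bars for the SE and red for an adjusted p of 0.05 or below. IMPDH2 (−0.23) and ADSL (−0.14) lie left of 0 and GART (0.17) right of it in red, and no amplitude is red.

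A repeating 24 h pattern was looked for in 2 ways. The cosine and sine of the limma fit passed for 0 of the 10 genes, where 15.1% of all genes passed. At an unadjusted p under 0.05, 4 of the 10 passed (ADSL, IMPDH2, SHMT2 and MTHFD2). The share of all genes at that unadjusted threshold was not counted. It is at least the 15.1% that passed after adjustment and can be well above it. The count of 4 is therefore not shown to exceed the share of all genes. The largest amplitude was that of MTHFD2, 0.17 ± 0.07 log2 units (SE, limma adjusted p = 0.14), with a fitted peak at 19.4 h. JTK, a rank statistic that compares the order of the values with that of a cosine at 12 phases, called 1 of the 10 genes, again MTHFD2 (S = 111, phase 18 h, adjusted permutation p = 0.042), where 14.7% of all genes were called. Only MTHFD2 of the 10 passed JTK at an unadjusted p under 0.05. The share of all genes there was likewise not counted, and it is at least the 14.7% called after adjustment. The call of MTHFD2 was lost without the first and last libraries, 0 h and 46 h (adjusted permutation p = 0.059), and without 6 h and 32 h (0.14). The levels of MTHFD2 were 151 FPKM at 0 h, 113 FPKM at 4 h, 169 FPKM at 22 h, 131 FPKM at 32 h and 261 FPKM at 46 h. On the same scale, 14 of 19 S phase markers passed the cosine test and 0 of 19 G2/M markers did. The mean of the S phase list was highest at 2 h and, on the second day, at 26 h, and that of the G2/M list at 22 h and, on the second day, at 34 h. For the 10 enzymes, correlations with the S phase mean over the 22 time points ran from −0.49 (ADSL) to 0.22 (PAICS), and with the G2/M mean from −0.50 (IMPDH2) to 0.66 (GART).

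In the last 2 h of the course MTHFD2 stood apart from the other 9 enzymes. MTHFD2 was measured at 171 FPKM at 44 h and 261 FPKM at 46 h, a step of 0.60 log2 units, while its 19 other steps ran from −0.27 to 0.24. It was the only gene of the 10 outside its own range, and 4.77% of all genes lay above and 2.49% below theirs. It was also the only one past 1.5-fold, where 1.58% of all genes lay above and 0.955% below. SHMT2 went from 110 to 141 FPKM, a step of 0.35 within its range of −0.46 to 0.51. MTHFD1 and the 7 purine enzymes had steps from −0.21 (PPAT) to 0.12 (GART). There is no later library with which to compare 46 h. Between 44 h and 46 h the erythroid sum was 6447 and 5711 FPKM, the ribosomal protein sum 10446 and 10236 FPKM, and the nuclear-retained RNA sum 1281 and 1587 FPKM, and their part in this step was not tested.

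Genes of serine and glycine supply were also higher at 46 h. Of the 6 genes of that list, 5 were past 1.5-fold above and 0 below, with a median step of 0.71, against 0.01 for all genes. PHGDH, the entry enzyme of serine synthesis, was at 33.1 and 57.7 FPKM at 44 h and 46 h. PSAT1, the aminotransferase that follows it, was at 80.1 and 135 FPKM, and PSPH, the phosphatase of the last step, at 18.4 and 28.5 FPKM. The transporters SLC6A9 (glycine) and SLC1A4 (neutral amino acids) went from 10.9 to 20.5 FPKM and from 13.1 to 21.6 FPKM. ALDH1L2, the mitochondrial formyl-folate dehydrogenase, went from 5.23 to 10.9 FPKM, a step of 0.93. SHMT1 and MTHFD2L had steps of −0.06 and −0.03, and ATF4, a transcription factor known to act on serine synthesis genes and MTHFD2, had a step of 0.20. At 16 h and 18 h MTHFD2 was high as well. There 5 of the 6 serine and glycine supply genes had negative departures, PHGDH −0.90 and PSPH −0.64 among them, and PSAT1 had 0.01. Of all 12253 genes, 7114 had positive ones. The GC content was 56.4% for PHGDH, 53.7% for PSPH, 44.1% for PSAT1 and 44.7% for MTHFD2, and its part was not tested.

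**Figure D4:**
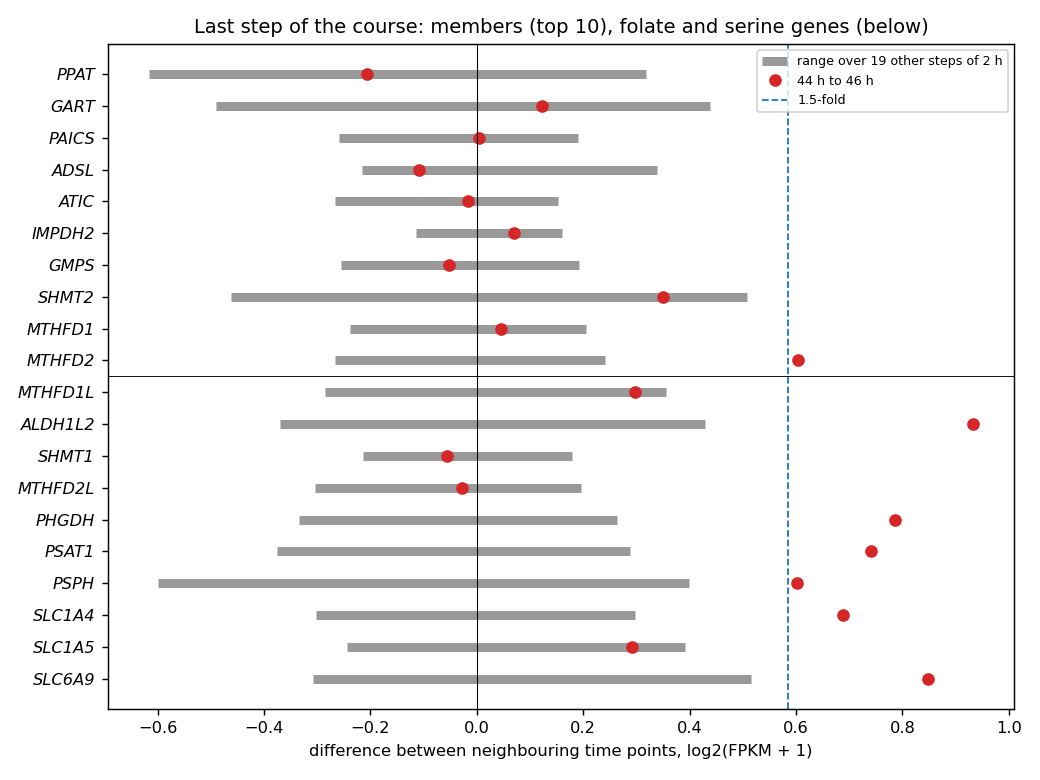
Difference between 46 h and 44 h in log2(FPKM + 1) (red points, horizontal axis) for the 10 enzymes (above the line) and for other folate and serine genes (below it), with grey bars for the range over 19 other steps of 2 h. MTHFD2 (0.60), ALDH1L2 (0.93), PHGDH, PSAT1, PSPH, SLC1A4 and SLC6A9 lie beyond the dashed line at 1.5-fold.

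Single libraries decided other high and low values. PPAT was at 48.5 FPKM at 0 h, its highest value, and at 31.3 FPKM at 2 h, a step of −0.62 log2 units and the lowest of its 20 steps. It was the only one of the 10 outside the range of its other steps, and of all genes 14.1% lay below and 9.44% above theirs there. At 1.5-fold PPAT was again the only one, and 4.61% of all genes were past it below and 2.75% above. SHMT2 was at 138 FPKM at 6 h, against 96.9 FPKM at 4 h and 100.1 FPKM at 8 h. GART was at 316 FPKM at 32 h, against 233 FPKM at 30 h and 225 FPKM at 34 h. Relative to the mean of the neighbours these were departures of 0.48 and 0.46. GART and SHMT2 lay above the range of their other time points at 6 h, as did 25.1% of all genes, and also at 32 h, as did 25.3%. ADSL lay below its range at 6 h and ATIC at 32 h, where 11.4% and 17.5% of all genes did. At 32 h the erythroid markers and the ribosomal protein list were at their lowest sums of the 22 time points, and their part in these values was not tested.

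The 10 enzymes did not share one profile. Over the 22 time points, the 45 pairwise Pearson correlations of log2(FPKM + 1) had a median of 0.05 and ran from −0.55 (ATIC with IMPDH2) to 0.70 (GART with SHMT2), with 17 below 0. With these 22 time points 4 pairs exceeded 0.5. With 0 h and 46 h also left out 8 pairs did, the median was 0.14 and the highest pair was PAICS with SHMT2 (0.76, from 0.57), while PPAT with MTHFD2 went from 0.22 to 0.64 and ADSL with MTHFD2 from 0.05 to 0.58. The points of these correlations share libraries and depth, and single libraries such as 6 h and 32 h, which were high for both GART and SHMT2, enter each. With 16 h and 18 h included, the median was 0.27 and 15 pairs exceeded 0.5. PAICS with GMPS went from 0.46 to 0.90, while PPAT with PAICS was 0.11 and 0.06. Most of all genes left their range at 16 h and 18 h, and pairs of other genes were not counted. The higher values are therefore not shown to be particular to these enzymes.

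**Figure D5:**
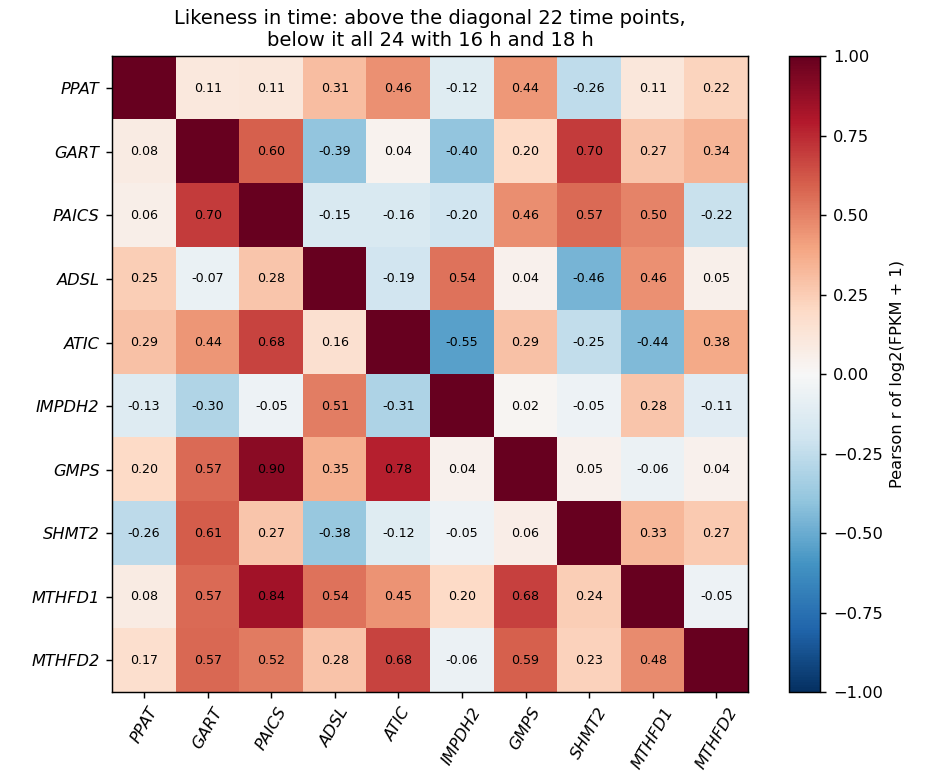
Pearson r of log2(FPKM + 1) between the 10 enzymes (both axes; colour from −1 to 1), above the diagonal over 22 time points and below it over all 24. Above the diagonal GART with SHMT2 is highest (0.70), and below it PAICS with GMPS is (0.90).

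For each enzyme the most similar gene was not another member. This was likely beforehand, since few of the genes compared are members. Among 7168 genes that averaged 10 FPKM or more, the closest over the 22 time points was C1D for PAICS (r = 0.95), MT2A for IMPDH2 (0.93), KIF2A for GART (0.92), PRMT1 for MTHFD1 (0.91), KDM4A for MTHFD2 (0.91), PSMG1 for ADSL (0.91), PAPOLA for GMPS (0.89), NARS1 for SHMT2 (0.89), TRPC4AP for ATIC (0.87) and OXSR1 for PPAT (0.82). The closest other member ranked between 135 (GART for SHMT2) and 1301 (PAICS for MTHFD1). Such correlations are the highest of many, and they and the ranks are given as a description.

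The rest of the pathway was counted from fixed lists, to be read against the 19.5% of all genes that rose and the 12.5% that fell. Of 10 measured genes of other purine synthesis steps, PRPS2, which makes the activated ribose, rose by 0.20 log2 units per 24 h, and NME1 (−0.22), GUK1 (−0.19) and IMPDH1 (−0.12), all of nucleotide formation beyond IMP, fell (limma adjusted p at most 0.029). Both IMPDH genes therefore fell over the course. Of 12 salvage and interconversion genes, 4 rose and 2 fell. GMPR, which returns GMP to IMP, rose by 0.44 ± 0.05 log2 units per 24 h (SE, limma adjusted p = 9.49e-07), and NT5C2, a purine nucleotidase, by 0.29 ± 0.07. PNP and GMPR2 rose by 0.20 and 0.14. APRT, the salvage enzyme of adenine, fell by 0.29 ± 0.04, and AMPD2, an AMP deaminase, by 0.19. Of 16 other folate cycle genes, 2 rose, ALDH1L2 by 0.41 ± 0.09 and MTHFD2L by 0.26 ± 0.05, and 0 fell.

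Waves of 24 h were counted in the same lists, where the share of all genes was 15.1% by the cosine test and 14.7% by JTK. In serine and glycine supply 3 of 6 genes passed the cosine test, PSAT1 with an amplitude of 0.34 ± 0.07 log2 units and a peak at 20.9 h, PHGDH with 0.25 ± 0.05 and PSPH with 0.23 ± 0.07 (SE, limma adjusted p at most 0.040). The folate carriers SLC46A1 and SLC19A1, 2 of 3 measured, also passed, with peaks at 6.39 h and 10.1 h. In other purine synthesis 1 of 10 passed (NME1), in salvage 1 of 12 (AMPD2), and in pyrimidine synthesis 1 of 6 (CAD, the enzyme of its first steps). In the other folate cycle MTR and MTHFD2L were among those that passed. JTK also called PSAT1, PHGDH, PSPH, SLC46A1 and MTR, but not CAD or SLC19A1 (both adjusted permutation p = 0.052), AMPD2 (0.18), NME1 or MTHFD2L (both 0.73). TYMS, which uses folate to make thymidylate, had an adjusted p of 0.051 in the cosine test and 0.037 by JTK, with levels of 326 ± 31.7 FPKM (SD, n = 10) on the first day and 301 ± 15.8 FPKM (SD, n = 12) on the second.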

How the data were processed

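RNA of 24 K562 libraries, 1 for each time point, was sequenced on an Illumina instrument. Per the labels and the study's methods, the authors aligned reads with STAR and made FPKM values with Cufflinks and Cuffnorm. GRCh37 is named in the submitters' processing notes, and versions, annotation and strandedness are not given in the sources used here. The FPKM table was used as deposited. A second table, deposited by the authors as cleaned, holds a score per gene and time point, with the same sorted values in every column. Neither table holds counts, so the depth is unknown and no counting interval is given. Columns were matched to samples by the hour in their names, and 0 columns of other samples were present.

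Of 12285 Ensembl identifiers 12123 had a symbol in a table of gene names, and 12180 (99.1%) a GC content in GENCODE 29, used for nothing else. The 12253 genes that averaged 1 FPKM or more were analysed as log2(FPKM + 1), which understates changes of low genes. Linear time and a 24 h cosine and sine were fitted with limma 3.58.1 (R 4.3.3, mean–variance trend) on 22 time points, and JTK used 12 phases and 100000 orderings over 12285 genes (Python 3.11.15, numpy 2.4.6, scipy 1.17.1, pandas 2.3.3). P-values were two-sided for the linear term and Benjamini–Hochberg adjusted, with a threshold of 0.05. Time points are treated as independent, so p-values measure only the spread between these libraries around the fitted course. Both procedures were tested on simulated data.

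All 10 members are named, with the partners PFAS, IMPDH1, SHMT1, MTHFD1L, MTHFD2L, SON and TYMS, the 4 pathway genes with the largest linear change and the 4 with the largest wave among those that passed, and the most similar gene of each member. One further gene that the rule names is not reported here. The lists were other purine synthesis, salvage, other folate cycle, folate transport, serine and glycine supply, pyrimidine synthesis, the regulators MYC, MAX, ATF4 and HIF1A, S phase, G2/M, erythroid, fibroblast, lymphoid, nuclear-retained RNAs and ribosomal proteins. Members and lists were chosen with earlier results of these data known. The steps at 0 h, 6 h, 32 h and 46 h, and the further genes named with them or among those that passed, were chosen after their values were seen. Alternatives were other scalings, filters, pseudocounts, periods, flanks and sets of time points, GC trend removal, a matched-hour difference of the days, and each library left out in turn.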

Additional observations from a re-analysis of the deposited data

How the results depend on the processing

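Of the 10 enzymes, 1 was called by JTK (MTHFD2), which became 0 without 6 h, 16 h, 18 h and 32 h, with a 20 h period, after GC trend removal, and without 0 h, 16 h, 18 h and 46 h, an alternative chosen after seeing the data. The cosine test called 0, and 1 with all 24 time points (MTHFD2, adjusted p = 0.041) and 2 with a 28 h period (PAICS and MTHFD2). The count of rising enzymes went from 1 to 0 with all 24 time points and with the matched-hour difference of the days (GART, adjusted p = 0.092). The count of falling ones went from 2 to 1 with a 20 h period and with the matched-hour difference (ADSL, adjusted p = 0.096 and 0.13), and ranged from 1 to 2 when single libraries were left out. The median departure at 16 h and 18 h, 0.37, became 0.25 with median scaling, 0.14 with upper-quartile scaling, 0.31 with flanks of 12 h and 22 h, 0.30 for 16 h alone, 0.25 after GC trend removal and 0.26 in score units of the cleaned table, and 2 enzymes passed above at 1.5-fold instead of 0 at 2-fold. The causes were not tested. No called result reversed.

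Over all genes, JTK calls went from 1808 to 1062 without 6 h, 16 h, 18 h and 32 h, to 133 with a 20 h and to 181 with a 28 h period. Cosine calls went from 1847 to 539 and 611 with these periods, and to 1090, 1123 and 1098 without 10 h, 12 h or 14 h. Rising and falling genes, 2395 and 1536, were 1539 and 862 by the matched-hour difference and 1883 and 2287 with median scaling, and 1222 genes rose among those that averaged 10 FPKM or more. Replicate numbers pair no libraries, since each time point has 1, and the only pairing was that of the same hours of both days in the matched-hour difference. Without counts, the precision of a single value is unknown.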

Other observations

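Beyond the enzymes of purine and folate metabolism, the regulators of the fixed list gave 1 rising gene (MAX) and 1 wave (MYC) among 4. MYC, a transcription factor known to act on nucleotide synthesis genes, passed the cosine test with an amplitude of 0.22 ± 0.06 log2 units (SE, limma adjusted p = 0.032) and a fitted peak at 11.2 h, while JTK did not call it (adjusted permutation p = 0.071). In pyrimidine synthesis CTPS2, a CTP synthase, rose by 0.17 ± 0.05 log2 units per 24 h (SE, limma adjusted p = 0.010), and CAD had a wave of 0.16 ± 0.04 with a peak at 12.7 h. Of 19 G2/M markers, 8 rose and 0 fell, and of 19 S phase markers, 3 rose and 2 fell.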
